A study of Drosophila melanogaster with 18 samples.

Results

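Neuropeptide precursor genes encode the proteins from which peptide neuromodulators and peptide hormones are cut. The set described here held 37 such Drosophila genes with 149 exon records, of 17753 genes and 87508 exon records in the count tables, and it was drawn up by gene symbol, without Akh and the insulin-like peptides. Of the 37 genes, 36 were found by gene identifier and 1, Nplp2, by its position and strand. RNA-seq was done on whole pupae at 48 hr after puparium formation (APF), a stage at which the adult nervous system is being built. Translating ribosome affinity purification (TRAP) pulls down a GFP-tagged ribosomal protein, RpL10A, with the mRNA bound to it, so that the mRNA of the cells making the tag is enriched over total mRNA of the same lysate. There were 5 libraries each of male TRAP and male total mRNA, with replicate numbers 1, 2, 3, 5 and 6, and 4 each of the female kinds, numbered 2, 3, 4 and 5. Animals of all groups carried 1 copy each of fru P1-Gal4, UAS-Gal4 and UAS-GFP::RpL10A in a w background. The tag was thus driven in the cells in which fru P1-Gal4 is active, the UAS-Gal4 element can prolong that expression, and no line without the tag or the driver was compared here. Each library came from a pool of sex-sorted animals, and TRAP and total mRNA of 1 replicate number and sex were taken to come from 1 lysate.

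A neuropeptide is made as a long precursor that enters the secretory pathway, where convertases cut it at basic residues, carboxypeptidases trim it and amidating enzymes finish its end. The peptides are stored in dense core vesicles and act mostly on G protein-coupled receptors, either near the site of release or, as hormones, through the hemolymph. In the pupa they are known for timing molts and ecdysis, for water and ion balance and for feeding and growth, and several are also made by endocrine cells of the gut or by the fat body.

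Library totals of males ran over 28706315 to 49642508 counts for TRAP and 30858349 to 58960302 for total mRNA, and those of females over 34057519 to 67491630 for TRAP and 24901633 to 31870712 for total mRNA. The 37 genes took 0.024% to 0.0445% of male TRAP counts, against 0.0175% to 0.0193% of male total mRNA counts, and 0.0463% to 0.0639% of female TRAP counts, against 0.0269% to 0.0302% of female total mRNA counts. CCHa2 held 30.9% to 45.0% of these counts in male TRAP, against 21.2% to 25.8% in male total mRNA, and 45.4% to 58.8% in female TRAP, against 31.4% to 39.2% in female total mRNA. Male TRAP replicate 1 was the TRAP library least like its group (mean correlation across genes 0.965, against 0.98 to 0.984 for the other male TRAP libraries), and among total mRNA libraries it was female replicate 5 (0.975). The study names fru P1 neurons as the target cells. Of 9 neuron markers, 9 were higher in TRAP than in total mRNA in both sexes, with elav at 320 ± 43.4 CPM (counts scaled by library size) in male TRAP, against 70.9 ± 11.3 CPM in male total mRNA (SD). The 8 fat body markers were higher in TRAP as well, in both sexes, and their summed level was 4292 to 12200 CPM in male TRAP, against 1179 to 1522 CPM in male total mRNA, and 11960 to 21760 CPM in female TRAP, against 2011 to 2186 CPM in female total mRNA. Over all genes tested, 39.0% were called higher in TRAP in males and 34.1% in females, by the test described below. The marker lists were chosen with earlier results of these data known, so their counts are not independent of those results. In pooled tissue such as this, fewer cells of a type and less RNA per cell cannot be told apart.

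For each gene the counts of its non-overlapping exon records were summed, and levels are given as CPM scaled by the trimmed mean of M values (TMM). CPM set side by side for TRAP and total mRNA were scaled among the libraries of that sex, and CPM set side by side for males and females were scaled among the TRAP or among the total mRNA libraries, so the same library carries slightly different values in the 2 settings. Values are listed in the order of replicate numbers. A call means an adjusted p (false discovery rate, FDR) under 0.2 over all genes tested, the threshold the study used, in the edgeR quasi-likelihood test, and fold changes are log2 values ± SE from that fit. Genes entered a test with a mean of at least 10 counts over the libraries compared. A floor of 3 counts, taken as the limit of detection, corresponded to 0.0674 to 0.183 CPM across libraries, and covers counting error only.

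Most precursor genes were expressed, at low levels. Per kilobase of summed exon length, CCHa2 stood highest in each of the 4 groups, at 100.2 ± 30.2 CPM per kb in male TRAP, against 29.5 ± 3.22 CPM per kb in male total mRNA, and at 217 ± 50.5 CPM per kb in female TRAP, against 71.0 ± 10.9 CPM per kb in female total mRNA (SD). Next came Ptth in male TRAP, with 37.1 ± 12.2 CPM per kb, and in female TRAP, with 50.3 ± 15.99. In total mRNA the next genes were Ptth in males, with 8.95 ± 1.44 CPM per kb, and ITP in females, with 14.6 ± 0.850. At the other end, Gpa2, a subunit of a glycoprotein hormone annotated here on an unmapped scaffold, had 0 counts in all 18 libraries. RYa, the precursor of RYamides, had 0 to 3 counts in each library and was tested nowhere. Crz, the precursor of corazonin, a stress and metabolic hormone, had 1 to 28 counts in a library.

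**Figure D1:**
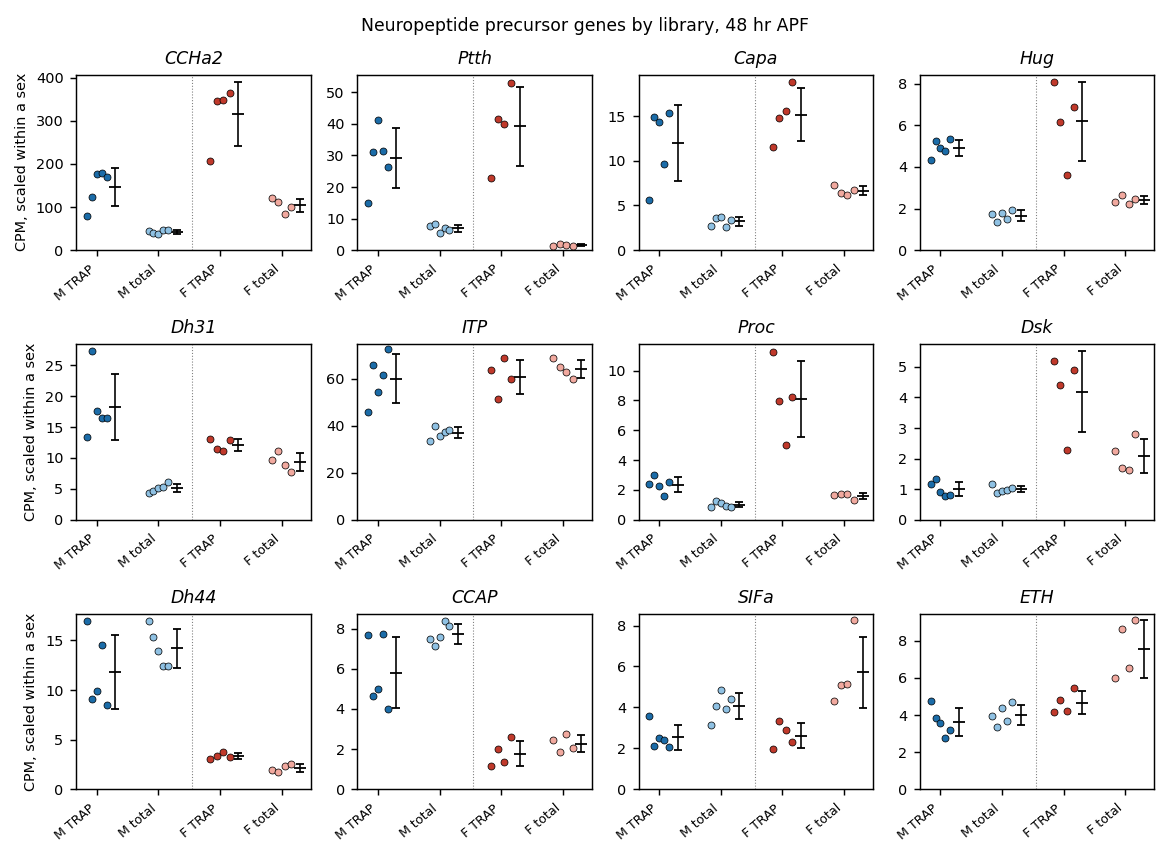
Level of 12 neuropeptide precursor genes in every library, in CPM scaled within a sex on linear axes from 0 (M, male; F, female; points, libraries; bar with whiskers, mean ± SD; n = 5 and 4). CCHa2, Ptth, Capa and Hug sat higher in TRAP than in total mRNA in every library of both sexes, whereas Dh31 and ITP differed far more in males than in females; levels left and right of the dotted line are not on 1 scale.

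Setting TRAP against total mRNA asks which mRNAs were enriched on the tagged ribosomes. In males, 20 of 34 tested precursor genes (58.8%) were higher in TRAP and 4 (11.8%) were lower, with FDR under 0.2, while over all 13810 genes tested 39.0% were called higher and 40.3% lower. The median log2 fold change of the 34 genes was 0.51, beside -0.02 over all genes. In females, 16 of 34 (47.1%) were higher and 5 (14.7%) lower, while over all 12170 genes 34.1% were called higher and 31.8% lower, and the median was 0.22, beside -0.03 over all genes. The 20 include Crz and the 16 include amn, genes that passed the filter through their TRAP counts. The genes called higher in both sexes were AstC, CCHa2, Capa, Dh31, Gpb5, Hug, Nplp2, Pdf, Proc, Ptth, Tk and sNPF. SIFa and AstCC were called lower in both sexes. No share of all genes called in both sexes is given here, so these names are not set against a background. Among the largest enrichments were those of the brain hormone gene Ptth, of Capa, Hug, CCHa2 and Proc and in males of Dh31, leaving aside amn, which had next to no counts in total mRNA.

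**Figure D2:**
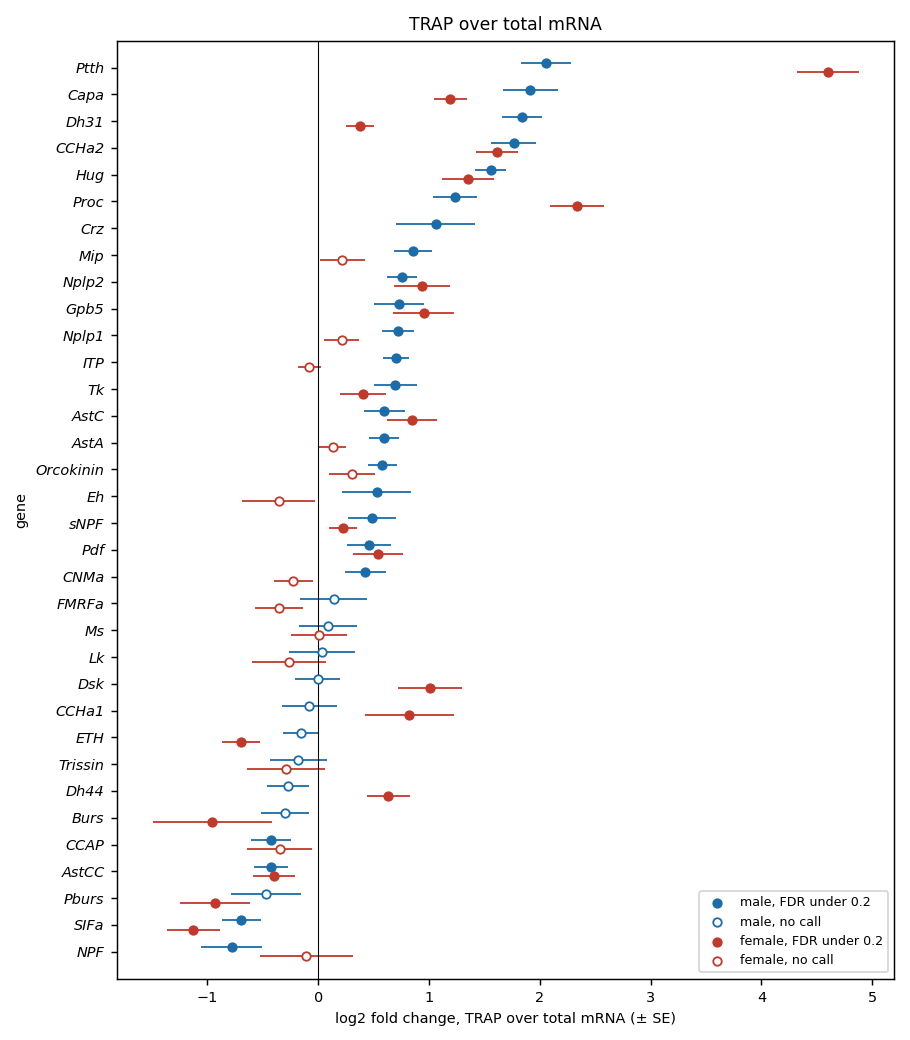
Log2 fold change of TRAP over total mRNA (± SE) for 34 neuropeptide precursor genes, ordered by the male value, with males in blue and females in red (filled, FDR under 0.2; open, no call; Crz was not tested in females, and amn is given in the text). Ptth lay farthest to the right in both sexes, at 2.06 in males and 4.60 in females, and SIFa was called lower in both.

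Among hormones of molting and ecdysis, Ptth encodes prothoracicotropic hormone, which drives ecdysone synthesis in the prothoracic gland. Its level in male TRAP was 15.1, 31.0, 41.3, 31.3 and 26.5 CPM, against 7.77, 8.40, 5.57, 6.88 and 6.35 CPM in male total mRNA. In female TRAP it was 22.7, 41.4, 40.0 and 53.1 CPM, against 1.40, 1.87, 1.76 and 1.38 CPM in female total mRNA. The groups did not overlap in either sex, and the lowest TRAP library was replicate 1 in males and replicate 2 in females. Ptth was higher in TRAP by 2.06 ± 0.22 in males (FDR = 1.3e-05) and by 4.60 ± 0.28 in females (FDR = 5.2e-06), on the log2 scale. Eh, the precursor of eclosion hormone, was called higher in male TRAP (0.53 ± 0.31, FDR = 0.15), with no call in females (-0.36 ± 0.33, FDR = 0.39). The male call of Eh rested on TRAP replicate 3, without which the value was 0.13 (FDR = 0.689), and it was also lost without total mRNA replicate 1, 2 or 3 (FDR = 0.208 to 0.243). Crz was higher in male TRAP by 1.06 ± 0.36 (FDR = 0.020), with 0.275, 0.861, 0.968, 0.428 and 0.518 CPM in TRAP, against 0.441, 0.267, 0.225, 0.288 and 0.238 CPM in male total mRNA. TRAP replicates 1 and 5 lay within the range of total mRNA, and female counts were too few for a test. With the filter used, Crz entered only tests that included male TRAP, its highest group, so the filter favoured its male calls.

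ETH, CCAP, Burs and Pburs, also of the ecdysis cascade, had no call of higher in TRAP in either sex. ETH encodes ecdysis triggering hormone of the Inka cells, endocrine cells on the tracheae. Female TRAP held 4.19, 4.80, 4.20 and 5.48 CPM of ETH, against 5.98, 8.65, 6.53 and 9.15 CPM in female total mRNA, with no overlap and a difference of -0.70 ± 0.17 (FDR = 0.0060). In males ETH had no call (-0.16 ± 0.16, FDR = 0.40), except without TRAP replicate 1 (-0.26, FDR = 0.137). CCAP, the precursor of crustacean cardioactive peptide, which acts in the ecdysis motor program, was lower in male TRAP (7.70, 4.64, 4.98, 7.75 and 4.00 CPM) than in male total mRNA (7.50, 7.16, 7.59, 8.39 and 8.13 CPM). The CCAP difference was -0.43 ± 0.18 (FDR = 0.054) with overlapping libraries, and the call was lost when records overlapping another gene were left out (-0.27, FDR = 0.25). In females CCAP was not called (-0.35 ± 0.30, FDR = 0.35), except without TRAP replicate 5 (-0.55, FDR = 0.182). Burs and Pburs encode the subunits of bursicon, the hormone of cuticle tanning and wing expansion. Pburs stood at 0.938, 1.60, 0.958 and 1.26 CPM in female TRAP, against 1.52, 2.43, 1.95 and 3.20 CPM in female total mRNA. The Pburs difference was -0.93 ± 0.32 (FDR = 0.031), and only TRAP replicate 3 lay above the lowest total mRNA library. Burs had 0.402, 1.96, 0.912 and 0.719 CPM in female TRAP, against 0.854, 1.59, 1.72 and 3.58 CPM in female total mRNA. The Burs libraries overlapped, and its call (-0.95 ± 0.54, FDR = 0.17) was lost without female total mRNA replicate 4 or 5 or without female TRAP replicate 2, 4 or 5, when FDR ran from 0.214 to 0.459. In males neither subunit had a call in the unpaired fit (Burs -0.30 ± 0.22, FDR = 0.24; Pburs -0.47 ± 0.32, FDR = 0.205), and with the lysate as a block Pburs was called lower (-0.53, FDR = 0.12). Leaving out single libraries gave a call of lower for Burs without male TRAP replicate 6 (FDR = 0.184) and for Pburs without that library or male total mRNA replicate 1 or 6 (FDR = 0.109 to 0.19).

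Among the peptides of water and ion balance, Capa encodes CAPA peptides, which act on the renal tubules. Capa stood at 5.61, 14.9, 14.4, 9.59 and 15.3 CPM in male TRAP, against 2.67, 3.65, 3.68, 2.64 and 3.40 CPM in male total mRNA. In females it was 11.5, 14.8, 15.6 and 18.8 CPM in TRAP, against 7.26, 6.41, 6.15 and 6.78 CPM in total mRNA. Capa was higher in TRAP by 1.92 ± 0.25 in males (FDR = 4.5e-05) and by 1.19 ± 0.15 in females (FDR = 1.1e-04), without overlap in either sex. Dh31 encodes a calcitonin-like diuretic hormone. Its level was 13.4, 27.3, 17.6, 16.5 and 16.5 CPM in male TRAP, against 4.38, 4.67, 5.07, 5.33 and 6.06 CPM in male total mRNA. In females Dh31 was 13.0, 11.5, 11.2 and 12.9 CPM in TRAP, against 9.64, 11.1, 8.87 and 7.77 CPM in total mRNA. All TRAP libraries of both sexes lay above the total mRNA libraries, by a wide margin in males (1.84 ± 0.18, FDR = 5.8e-06) and a narrow one in females (0.38 ± 0.13, FDR = 0.027).

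ITP, the ion transport peptide gene, was at 45.9, 65.6, 54.3, 61.5 and 72.8 CPM in male TRAP, against 33.6, 39.8, 35.6, 37.5 and 38.1 CPM in male total mRNA. Female TRAP had 63.6, 51.4, 68.6 and 59.8 CPM of ITP, against 68.9, 65.1, 63.0 and 59.97 CPM in female total mRNA. ITP was higher in TRAP in males, without overlap (0.70 ± 0.12, FDR = 3.4e-04), and the female libraries were intermingled (-0.08 ± 0.10, FDR = 0.53). Dh44 encodes a diuretic hormone related to corticotropin-releasing factor. Male TRAP held 16.9, 9.13, 9.86, 14.6 and 8.48 CPM of Dh44, against 16.9, 15.3, 13.96, 12.4 and 12.5 CPM in male total mRNA, and female TRAP 3.02, 3.33, 3.74 and 3.23 CPM, against 1.89, 1.78, 2.38 and 2.54 CPM in female total mRNA. Dh44 was higher in female TRAP by 0.63 ± 0.19 (FDR = 0.020) without overlap. Most of the female TRAP level of its longest record lay outside the shorter records nested in it, unlike in male TRAP, as described below. In males Dh44 had no call in the unpaired fit (-0.27 ± 0.19, FDR = 0.22), but a call of lower with the lysate as a block (-0.31, FDR = 0.088) and without male TRAP replicate 1 (-0.44, FDR = 0.018) or 5 or male total mRNA replicate 5 or 6 (FDR = 0.151 to 0.198). Gpb5, a glycoprotein hormone subunit, was called higher in both sexes (0.73 ± 0.22 in males, FDR = 0.013; 0.95 ± 0.27 in females, FDR = 0.014). Lk, the leucokinin precursor, was called in neither (0.04 ± 0.30, FDR = 0.91, in males; -0.26 ± 0.33, FDR = 0.53, in females).

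Among the peptides of feeding, gut and metabolism, CCHa2 encodes CCHamide-2, a hormone of the gut and fat body known in larvae for promoting insulin-like peptide release. CCHa2 in male TRAP was 79.1, 123, 178, 180 and 170 CPM, against 45.3, 39.7, 36.5, 46.6 and 47.1 CPM in male total mRNA. Female TRAP had 207, 345, 349 and 365 CPM, against 120, 111, 83.3 and 100 CPM in female total mRNA. The groups were separate in both sexes, with the lowest TRAP values in male replicate 1 and female replicate 2, and CCHa2 was higher in TRAP by 1.76 ± 0.21 in males (FDR = 2.1e-05) and 1.61 ± 0.19 in females (FDR = 8.1e-05). The fat body markers moved the same way, with a median log2 fold change over the 8 genes of 3.65 in males and 4.63 in females, and their part in the CCHa2 difference was not tested. Midgut markers were at 16.2 to 19.5 CPM summed over 7 genes in male TRAP, against 18.2 to 22.1 CPM in male total mRNA, and at 11.7 to 13.8 CPM in female TRAP, against 16.96 to 20.4 CPM in female total mRNA. Hug, the hugin precursor of pyrokinins that regulate feeding, was at 4.35, 5.23, 4.93, 4.75 and 5.33 CPM in male TRAP, against 1.74, 1.33, 1.80, 1.51 and 1.95 CPM in male total mRNA. In females Hug was at 8.11, 6.17, 3.60 and 6.87 CPM in TRAP, against 2.32, 2.67, 2.24 and 2.48 CPM in total mRNA. Hug was higher in TRAP in both sexes without overlap (1.56 ± 0.14, FDR = 3.1e-06, in males; 1.35 ± 0.23, FDR = 7.8e-04, in females), and its 5 male TRAP libraries lay close together.

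Dsk, the drosulfakinin precursor of cholecystokinin-like satiety peptides, was at 1.16, 1.32, 0.921, 0.771 and 0.815 CPM in male TRAP, against 1.16, 0.889, 0.943, 0.983 and 1.02 CPM in male total mRNA. Female TRAP had 5.19, 4.41, 2.28 and 4.90 CPM of Dsk, against 2.26, 1.68, 1.62 and 2.81 CPM in female total mRNA. Dsk was higher in female TRAP (1.01 ± 0.29, FDR = 0.013), although TRAP replicate 4 lay inside the range of total mRNA, and the male difference was -0.01 ± 0.20 (FDR = 0.98). NPF, neuropeptide F, was at 0.550, 0.554, 0.645, 0.385 and 0.259 CPM in male TRAP, against 1.02, 0.978, 0.584, 0.720 and 0.785 CPM in male total mRNA. NPF was lower in male TRAP by -0.78 ± 0.27 (FDR = 0.025) with 1 TRAP library, replicate 3, above the lowest total mRNA library, and was not called in females (-0.11 ± 0.42, FDR = 0.84). AstCC, the precursor of a C-type allatostatin, was at 3.47, 2.25, 3.32, 3.64 and 2.78 CPM in male TRAP, against 4.24, 4.54, 4.00, 4.44 and 3.50 CPM in male total mRNA. Female TRAP held 3.25, 3.53, 3.74 and 2.29 CPM of AstCC, against 4.94, 4.16, 3.96 and 3.80 CPM in female total mRNA. AstCC was lower in TRAP in males (-0.43 ± 0.15, FDR = 0.026) and in females (-0.40 ± 0.19, FDR = 0.11). The female call was lost without total mRNA replicate 2 (FDR = 0.25) or TRAP replicate 5 (FDR = 0.318). Of the related allatostatin genes, AstC, whose peptides inhibit hormone release, was higher in both sexes (0.60 ± 0.19 in males, FDR = 0.014; 0.85 ± 0.22 in females, FDR = 0.0093), while AstA, a satiety peptide gene, and Mip, which encodes myoinhibitory peptides, were higher in males (0.59 ± 0.13, FDR = 0.0022; 0.86 ± 0.17, FDR = 9.8e-04). Neither had a call in females (AstA 0.13 ± 0.12, FDR = 0.41; Mip 0.22 ± 0.20, FDR = 0.38), apart from Mip without TRAP replicate 4 (FDR = 0.177). Tk, the tachykinin precursor, and sNPF, the short neuropeptide F precursor, were called higher in both sexes, by 0.70 ± 0.19 and 0.49 ± 0.22 in males (FDR = 0.0074 and 0.064) and by 0.41 ± 0.21 and 0.22 ± 0.12 in females (FDR = 0.13 and 0.16). The female call of Tk was lost without total mRNA replicate 4 or 5 or TRAP replicate 5 (FDR = 0.237 to 0.278), and that of sNPF without any 1 of total mRNA replicates 2, 4 and 5 or TRAP replicates 2, 3 and 4 (FDR = 0.23 to 0.282). CCHa1, the gene of CCHamide-1, was called higher in females (0.82 ± 0.40, FDR = 0.11) but not without total mRNA replicate 2 or TRAP replicate 2 or 3 (FDR = 0.207 to 0.24), and had no call in males (-0.08 ± 0.25, FDR = 0.78).

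Among the remaining neuromodulators, Proc encodes proctolin, a peptide that enhances muscle contraction. Proc stood at 2.37, 2.98, 2.26, 1.58 and 2.56 CPM in male TRAP, against 0.882, 1.25, 1.12, 0.935 and 0.880 CPM in male total mRNA. In females Proc was at 11.3, 7.97, 5.02 and 8.22 CPM in TRAP, against 1.65, 1.73, 1.72 and 1.32 CPM in total mRNA. Its TRAP libraries were all above the total mRNA libraries, by 1.24 ± 0.20 in males (FDR = 2.1e-04) and 2.34 ± 0.24 in females (FDR = 3.9e-05). SIFa, whose peptide modulates courtship and sleep, was at 3.58, 2.12, 2.49, 2.40 and 2.07 CPM in male TRAP, against 3.11, 4.05, 4.85, 3.93 and 4.40 CPM in male total mRNA. Female TRAP had 1.98, 3.33, 2.87 and 2.29 CPM of SIFa, against 4.33, 5.10, 5.15 and 8.27 CPM in female total mRNA. SIFa was lower in TRAP in males (-0.69 ± 0.18, FDR = 0.0048), where TRAP replicate 1 alone overlapped total mRNA, and in females (-1.13 ± 0.24, FDR = 0.0029) without overlap. Pdf, the pigment-dispersing factor of clock neurons, was called higher in both sexes (0.46 ± 0.20, FDR = 0.060, in males; 0.54 ± 0.23, FDR = 0.068, in females). Nplp2 was also higher in both (0.76 ± 0.13, FDR = 3.9e-04, in males; 0.94 ± 0.25, FDR = 0.010, in females).

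Nplp1, Orcokinin, which encodes orcokinins, and CNMa, which encodes CNMamide, were called higher in male TRAP alone, by 0.72 ± 0.14 (FDR = 0.0010), 0.58 ± 0.13 (FDR = 0.0020) and 0.43 ± 0.18 (FDR = 0.057). Their female values were 0.21 ± 0.16, 0.30 ± 0.21 and -0.22 ± 0.17, with FDR from 0.25 to 0.30, and Orcokinin was called in females with the lysate as a block (0.31, FDR = 0.178). Single libraries also decided the missing female calls. Orcokinin was called without total mRNA replicate 4 or 5 or TRAP replicate 2 (FDR = 0.0611 to 0.186), Nplp1 without TRAP replicate 4 or 5 (FDR = 0.166 and 0.0996) and CNMa, as lower, without total mRNA replicate 3 (FDR = 0.179). FMRFa, Ms and Trissin, the precursors of FMRFamides, of myosuppressin, which inhibits visceral muscle, and of trissin, had no call in either sex, with values from -0.18 to 0.14 in males and from -0.35 to 0.01 in females. With the block, FMRFa was called lower in females (-0.37, FDR = 0.186).

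The gene amn, known from memory and sleep mutants, stood apart because it was nearly absent from total mRNA. It had 0, 22, 10, 16 and 42 counts in male TRAP, against 0, 0, 0, 0 and 1 counts in male total mRNA, and 84, 48, 74 and 106 counts in female TRAP, against 0 in all 4 female total mRNA libraries. Female TRAP was at least 16.1-fold higher, set against a floor of 3 counts per total mRNA library. It passed the filter through its TRAP libraries alone and is 1 of the 16 genes called higher in females. In males the counts were too few for the test, and the summed counts per summed scaled library size had a ratio of 121 (exact 95% counting interval 21.1 to 4830), with TRAP replicate 1 at 0. The single 3953 bp record of amn lies on the X chromosome opposite Hers, which was at 41.3 ± 6.91 CPM in male TRAP, against 20.1 ± 2.88 CPM in male total mRNA, and at 44.5 ± 10.2 CPM in female TRAP, against 35.2 ± 2.47 CPM in female total mRNA (SD).

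The receptors and the processing enzymes of the peptides were counted alongside. Of 36 receptor genes, 34 were higher in male TRAP and 0 lower, and in females 27 of 35 were higher and 0 lower, with medians of 1.07 and 0.69, beside the 39.0% and 34.1% of all genes called higher. Pdfr, the receptor of Pdf, had the largest value, 4.78 ± 0.40 in males and 4.14 ± 0.24 in females, at 131 ± 61.8 CPM in male TRAP, against 4.77 ± 0.698 CPM in male total mRNA, and 171 ± 51.4 CPM in female TRAP, against 9.70 ± 0.919 CPM in female total mRNA. Of 13 genes of processing and release, 10 were higher in male TRAP and 1 lower, and in females 11 of 12 were higher and 1 lower, with medians of 0.96 and 0.70. Among them amon, the prohormone convertase of neuroendocrine cells, was higher by 1.29 ± 0.15 in males and 1.15 ± 0.20 in females, and IA-2, a protein of dense core vesicles, by 1.88 ± 0.15 and 1.04 ± 0.18 in the same order of sexes. The precursor genes thus had the lowest median of the 3 lists in each sex, a difference that was not tested. Akh, a hormone of the corpora cardiaca that is not among the 37 genes, was at 69.3 ± 32.3 CPM in male TRAP, against 2.29 ± 0.446 CPM in male total mRNA, and 11.5 ± 3.86 CPM in female TRAP, against 5.32 ± 0.694 CPM in female total mRNA. Glia, hemocyte and muscle markers were called in both directions in males (2 higher and 2 lower of 8, 3 and 1 of 5, and 3 and 2 of 7), and mostly lower in females (1 and 5 of 8, 0 and 3 of 5, and 2 and 4 of 7).

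**Figure D3:**
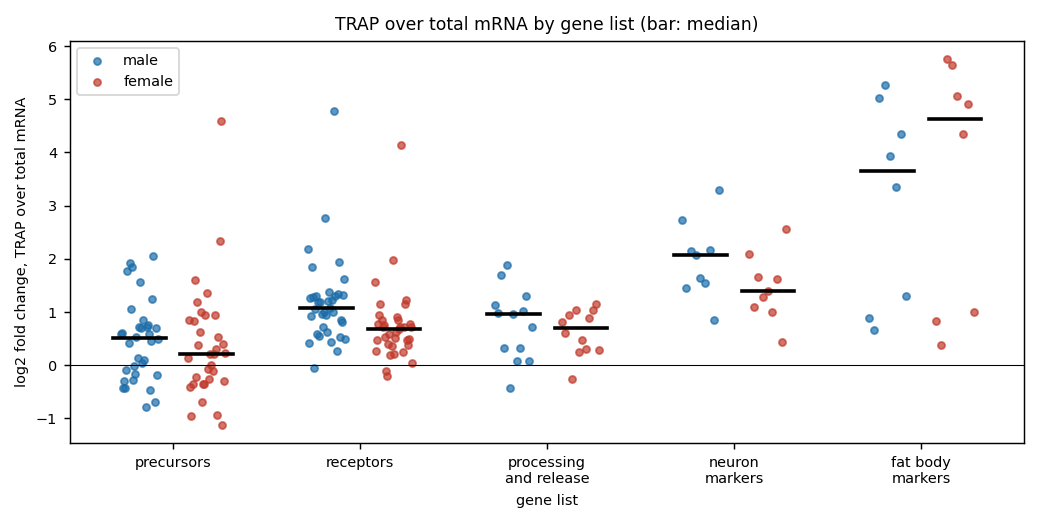
Log2 fold change of TRAP over total mRNA for each tested gene of 5 lists, male values in blue and female values in red beside them (bar, median of the list; amn is not plotted). Receptor genes centred at 1.07 and 0.69 and precursor genes at 0.51 and 0.22, while the fat body markers reached the highest medians, 3.65 and 4.63.

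Comparing males with females asked which precursor mRNAs were sex-biased in TRAP and in the whole animal. In TRAP, 4 of 35 tested genes (11.4%) were higher in males and 22 (62.9%) lower in males, while 33.1% of all 13818 genes were called higher and 39.7% lower. The 4 include Crz, which passed the filter through its male TRAP counts. The median of the 35 genes was -0.50, beside -0.14 over all genes, so differences in TRAP are to be read against a shift of -0.14. With size factors by relative log expression (RLE) the all-gene median was -0.02, 4 members were higher and 17 lower, and 36.0% and 30.9% of all genes were higher and lower. Without male TRAP replicate 6 the count of lower genes was 11, while 23.3% of all genes were called lower and the all-gene median was 0.03. In total mRNA, 5 of 33 (15.2%) were higher in males and 24 (72.7%) lower, while 45.9% and 43.3% of all 13454 genes were called higher and lower, with a median of -0.52 beside 0.01 over all genes. With RLE the all-gene median moved to 0.14, the members to 6 higher and 20 lower, and all genes to 49.2% higher and 38.1% lower. Neuron markers were lower in males as well, 8 of 9 in total mRNA (median -0.46) and 3 of 9 in TRAP (median -0.29). The 7 male germline markers were higher in males in both, with medians of 7.93 in TRAP and 6.75 in total mRNA. Their summed level was 1484 to 7600 CPM in male TRAP, against 4.31 to 34.1 CPM in female TRAP. In total mRNA it was 2979 to 5081 CPM in males, against 0.261 to 65.0 CPM in females. Between male TRAP and male total mRNA, 0 of these 7 were called higher and 3 lower, beside 39.0% and 40.3% of all genes. What part of the members' differences goes with the neuron and germline markers was not tested.

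**Figure D4:**
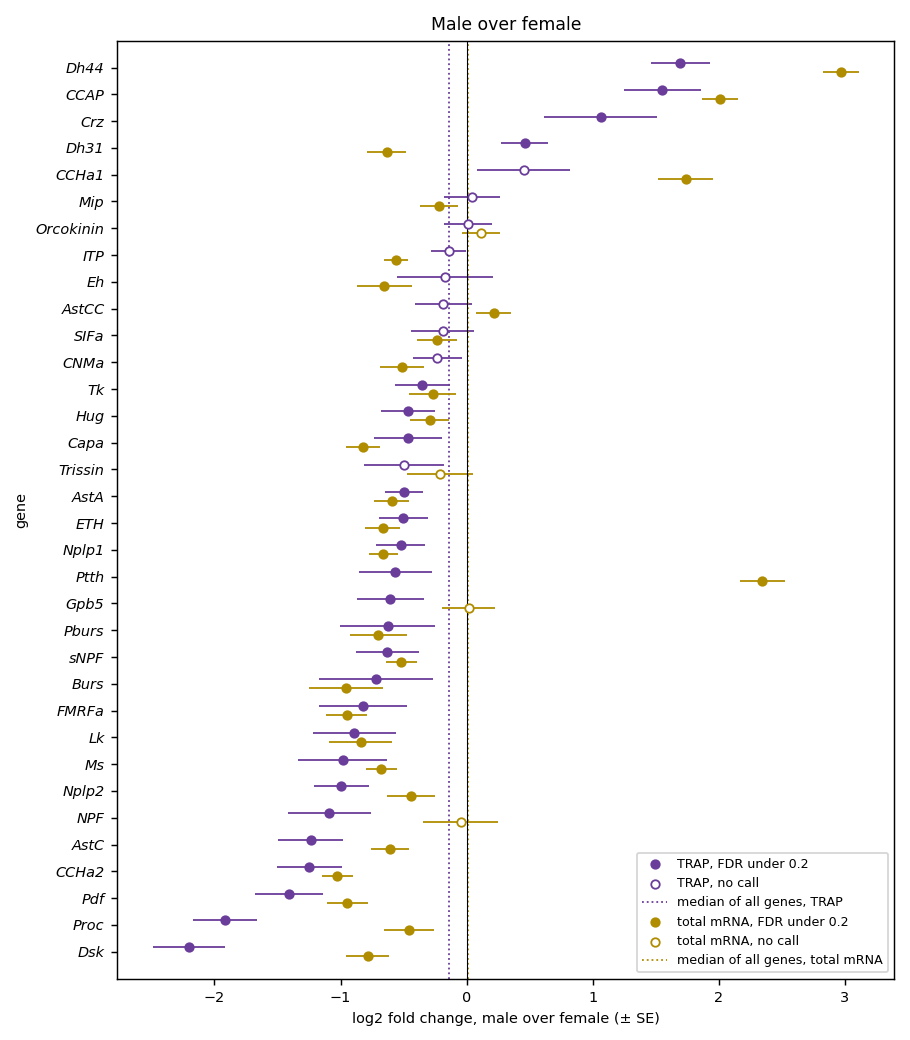
Log2 fold change of males over females (± SE) for 34 neuropeptide precursor genes, in TRAP (purple) and in total mRNA (ochre), ordered by the TRAP value (filled, FDR under 0.2; open, no call; dotted lines, all-gene medians of -0.14 and 0.01; Crz was not tested in total mRNA, and amn is not plotted). Dh44 and CCAP lay to the right in both, Ptth only in total mRNA, and most other genes lay to the left.

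Of the hormones of molting and ecdysis, CCAP was higher in males in both fractions and Ptth in total mRNA. CCAP was at 7.53, 4.41, 4.79, 7.30 and 3.84 CPM in male TRAP, against 1.21, 2.27, 1.38 and 2.61 CPM in female TRAP. In total mRNA it was at 8.11, 7.74, 8.21, 9.08 and 8.80 CPM in males, against 2.30, 1.80, 2.68 and 1.61 CPM in females. CCAP was higher in males without overlap in both, by 1.55 ± 0.30 in TRAP (FDR = 0.0013) and 2.01 ± 0.14 in total mRNA (FDR = 1.2e-07). Ptth was at 8.41, 9.08, 6.02, 7.45 and 6.87 CPM in male total mRNA, against 1.32, 1.80, 1.71 and 1.09 CPM in female total mRNA. It was thus higher in males by 2.35 ± 0.18 (FDR = 2.4e-07) without overlap, but lower in male TRAP by -0.57 ± 0.29 (FDR = 0.12), a call lost with RLE (FDR = 0.21) and without male TRAP replicate 6 or female TRAP replicate 3 or 5 (FDR = 0.223 to 0.467). Crz was at 0.269, 0.817, 0.932, 0.404 and 0.497 CPM in male TRAP, against 0.139, 0.447, 0.276 and 0.273 CPM in female TRAP, with overlap (1.06 ± 0.45, FDR = 0.064). Here too Crz passed the filter through its male TRAP counts. Burs went the other way in total mRNA, with 0.835, 0.865, 1.12, 0.856 and 0.849 CPM in males, against 0.804, 1.53, 1.66 and 2.83 CPM in females, where replicate 2 lay below the males (-0.96 ± 0.30, FDR = 0.011). Pburs and Eh were lower in male total mRNA too (-0.70 ± 0.23, FDR = 0.014; -0.65 ± 0.21, FDR = 0.015), as was ETH (-0.67 ± 0.14, FDR = 8.8e-04).

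Of the genes of water balance, Dh44 was at 16.6, 8.67, 9.50, 13.7 and 8.14 CPM in male TRAP, against 3.12, 3.79, 3.77 and 3.27 CPM in female TRAP. Male total mRNA had 18.3, 16.6, 15.1, 13.4 and 13.5 CPM of Dh44, against 1.78, 1.71, 2.31 and 2.002 CPM in female total mRNA. Every male library lay above every female one, by 1.70 ± 0.24 in TRAP (FDR = 9.9e-05) and 2.97 ± 0.14 in total mRNA (FDR = 4.2e-09), the largest male bias among the members in each. Dh31 was at 13.1, 25.9, 17, 15.6 and 15.8 CPM in male TRAP, against 13.5, 13.1, 11.3 and 13.1 CPM in female TRAP. In total mRNA it was at 4.74, 5.05, 5.49, 5.76 and 6.56 CPM in males, against 9.07, 10.7, 8.59 and 6.14 CPM in females. Dh31 was therefore higher in males in TRAP (0.46 ± 0.19, FDR = 0.057) and lower in males in total mRNA (-0.64 ± 0.16, FDR = 0.0029). In TRAP, male replicate 1 lay below female replicates 2 and 5, and in total mRNA female replicate 5 lay below male replicate 6. Lk was at 0.835, 0.817, 0.728, 0.675 and 0.386 CPM in male total mRNA, against 1.09, 1.49, 1.02 and 1.22 CPM in female total mRNA, without overlap (-0.84 ± 0.25, FDR = 0.0086). ITP and Capa were lower in male total mRNA by -0.56 ± 0.10 (FDR = 2.0e-04) and -0.82 ± 0.14 (FDR = 1.6e-04).

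Among feeding and gut peptides, Dsk was at 1.13, 1.25, 0.888, 0.726 and 0.782 CPM in male TRAP, against 5.37, 5.02, 2.30 and 4.95 CPM in female TRAP. The groups were separate and Dsk was lower in males by -2.20 ± 0.29 (FDR = 6.0e-05), the largest female bias of the tested members in TRAP, while in total mRNA the difference was -0.78 ± 0.17 (FDR = 0.0013). CCHa2 was at 77.4, 117, 171, 170 and 163 CPM in male TRAP, against 214, 393, 352 and 369 CPM in female TRAP. Its total mRNA levels were 49.0, 42.9, 39.5, 50.5 and 51.0 CPM in males, against 113, 107, 80.7 and 79.0 CPM in females. CCHa2 was lower in males without overlap in TRAP (-1.25 ± 0.26, FDR = 0.0018) and in total mRNA (-1.02 ± 0.13, FDR = 1.4e-05), and the fat body markers were lower in males too, 8 of 8 in TRAP (median -1.07) and 5 of 8 in total mRNA (median -0.23), whose part in the CCHa2 difference was not tested. AstC was at 1.94, 3.24, 3.37, 2.14 and 2.59 CPM in male TRAP, against 8.42, 6.88, 3.68 and 6.11 CPM in female TRAP, without overlap (-1.24 ± 0.26, FDR = 0.0020). NPF was at 0.538, 0.525, 0.621, 0.363 and 0.249 CPM in male TRAP, against 1.18, 1.23, 0.828 and 0.681 CPM in female TRAP, also without overlap (-1.09 ± 0.33, FDR = 0.016), and its total mRNA did not differ beyond the spread (-0.05 ± 0.30, FDR = 0.89). CCHa1 was at 2.15, 1.92, 1.46, 2.31 and 2.32 CPM in male total mRNA, against 0.402, 0.677, 0.693 and 0.653 CPM in female total mRNA. This was a male bias without overlap (1.74 ± 0.22, FDR = 1.8e-05), and in TRAP CCHa1 had no call (0.45 ± 0.37, FDR = 0.31), except without male TRAP replicate 2 (0.61, FDR = 0.186). AstCC was at 4.59, 4.90, 4.32, 4.80 and 3.78 CPM in male total mRNA, against 4.65, 4.01, 3.83 and 3.003 CPM in female total mRNA, and its call (0.21 ± 0.14, FDR = 0.17) was lost without any of 5 libraries, male total mRNA replicate 1, 2 or 5 or female total mRNA replicate 4 or 5 (FDR = 0.25 to 0.475).

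Among the remaining neuromodulators, Proc was at 2.31, 2.83, 2.17, 1.49 and 2.45 CPM in male TRAP, against 11.6, 9.08, 5.06 and 8.31 CPM in female TRAP. Pdf was at 1.67, 1.49, 2.04, 1.37 and 1.07 CPM in male TRAP, against 4.37, 5.51, 2.39 and 3.84 CPM in female TRAP. Both were lower in males without overlap, Proc by -1.92 ± 0.25 (FDR = 7.0e-05) and Pdf by -1.41 ± 0.27 (FDR = 0.0011). In total mRNA, Pdf was at 1.28, 1.06, 1.41, 1.09 and 1.39 CPM in males, against 2.18, 2.71, 2.68 and 2.04 CPM in females (-0.95 ± 0.16, FDR = 2.0e-04), and FMRFa at 1.13, 1.49, 1.60, 1.12 and 1.26 CPM in males, against 2.53, 2.62, 2.77 and 2.13 CPM in females (-0.95 ± 0.16, FDR = 2.0e-04). Neither gene overlapped between the sexes in total mRNA. The gene amn was at 0, 0.642, 0.444, 0.646 and 1.49 CPM in male TRAP, against 2.91, 1.79, 3.40 and 2.41 CPM in female TRAP, without overlap (-1.96 ± 0.57, FDR = 0.013). Orcokinin and Trissin had no call between the sexes in either fraction, though with RLE Orcokinin was called higher in male total mRNA (0.24, FDR = 0.146). The largest of their differences was -0.50 ± 0.32, of Trissin in TRAP (FDR = 0.203, and a call of lower without male TRAP replicate 3, FDR = 0.198). Gpb5 was lower in male TRAP (-0.60 ± 0.27, FDR = 0.075), a call lost without male TRAP replicate 6 (FDR = 0.408) or female TRAP replicate 3 (FDR = 0.254), with no call in total mRNA (0.02 ± 0.21, FDR = 0.95).

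Whether TRAP enrichment itself differed between the sexes was tested as the male log2 ratio of TRAP over total mRNA minus the female one, on all 18 libraries. With 1 TMM scaling over all libraries the median over all 13762 genes was 0.47, so differences are given relative to it, and 49.1% of all genes were called higher and 10.8% lower. Each FDR and call tests the full difference against 0, not the value relative to the median. Of 35 members, 14 were called higher in males and 4 lower. The 14 include Crz (FDR = 0.043), which passed the filter through its male TRAP counts and was also called with RLE (1.40, FDR = 0.18). With RLE, 12.7% and 19.9% of all genes and 3 and 5 members were called, and with TMM within each sex 29.1% and 16.4% of all genes and 10 and 5 members, so that the counts rest on the scaling. Dh31 and ITP had a call of larger enrichment in males under each of the TMM and RLE scalings, Dh31 by 1.68 ± 0.25, or 1.22 relative to the median (FDR = 2.7e-04; 1.23 and FDR = 0.0012 with RLE), and ITP by 1.00 ± 0.17, or 0.54 relative to it (FDR = 4.4e-04; 0.55 and FDR = 0.014 with RLE). Smaller enrichment in males was called under both for 4 members, namely Ptth (-2.33 ± 0.39, relative value -2.80, FDR = 5.0e-04), Proc (-0.88 ± 0.33, relative value -1.34, FDR = 0.042), Dh44 (-0.69 ± 0.28, relative value -1.16, FDR = 0.056) and Dsk (-0.84 ± 0.34, relative value -1.30, FDR = 0.056), with RLE values of -2.78, -1.32, -1.12 and -1.26.

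The smaller male enrichment of Ptth and Dh44 stood beside their higher male total mRNA, given above, and that of Proc and Dsk beside their higher female TRAP. AstA and CNMa, the next in order of p, lost their calls with RLE. AstA stood at 6.44, 8.24, 6.59, 5.74 and 8.56 CPM in male TRAP, against 4.24, 5.20, 4.71, 4.34 and 5.21 CPM in male total mRNA, and at 9.88, 8.88, 8.53 and 9.55 CPM in female TRAP, against 9.76, 9.16, 7.25 and 7.55 CPM in female total mRNA. Its difference was 0.68 ± 0.20, or 0.21 relative to the median (FDR = 0.012; 0.40 with RLE). CNMa stood at 2.42, 2.49, 3.13, 2.83 and 4.18 CPM in male TRAP, against 2.81, 2.18, 2.20, 2.18 and 1.85 CPM in male total mRNA, and at 3.52, 3.07, 3.15 and 3.23 CPM in female TRAP, against 3.66, 3.09, 4.72 and 3.69 CPM in female total mRNA. Its difference was 0.87 ± 0.26, or 0.40 relative to the median (FDR = 0.013; 0.28 with RLE).

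The study's own test was made on single exon records, kept where at least 60% of the compared libraries exceeded 2 CPM, with the edgeR exact test. No single group made up 60% of the libraries compared, so a record over 2 CPM in 1 group alone could not be tested. Few precursor genes had a record that passed. In males 12 did, of which 9 were higher in TRAP and 1 was lower, while 43.5% and 50.0% of all genes tested had a record called higher and lower. The lower gene was Dh44, and the count was 2 without male total mRNA replicate 2 or with the lysate as a block and 3 without male TRAP replicate 1. In females 10 did, with 4 higher and 2 lower, beside 38.4% and 48.4% of all genes, and 1 lower without female total mRNA replicate 4 or female TRAP replicate 3. Between the sexes, 1 of 11 genes was higher (Dh31) and 1 lower (CCHa2) in male TRAP, beside 31.7% and 25.6% of all genes, counts that were 2 higher without any 1 of the female TRAP libraries, 3 lower without male TRAP replicate 1, 2 or 3 or female TRAP replicate 2, 4 or 5, and 2 lower without male TRAP replicate 5 or 6. In total mRNA 0 of 10 were higher and 8 lower in males, beside 47.3% and 46.2%. None of the genes called higher in male total mRNA by gene totals had a tested record. The 0 therefore says nothing about those genes. The number higher was 0 also at an unadjusted p under 0.05 and by the quasi-likelihood test. It was 3 without any 1 of the female total mRNA libraries, when the male libraries alone met the 60% and 13 or 14 genes had a tested record. Without male total mRNA replicate 3, 5 or 6 it was 1.

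Within genes, the records did not all follow the gene total. Ptth runs on the minus strand of chromosome 2L (build dm6) from 575711 to 576896, and its last record, 575711 to 576022, was at 17.2 ± 5.30 CPM in male TRAP, against 3.10 ± 0.466 CPM in male total mRNA, and at 23.1 ± 7.52 CPM in female TRAP, against 1.01 ± 0.158 CPM in female total mRNA (SD). It was higher in male TRAP by 2.50 (FDR = 2.4e-25), and the neighbouring record, 576081 to 576404, by 1.95 (FDR = 4.2e-12). The first record, 576514 to 576896, was at 1.09 ± 0.218 CPM in male TRAP, against 1.96 ± 0.212 CPM in male total mRNA, and was too low for the test. The last record lies opposite the gene cold, which was at 16.7 ± 3.54 CPM in male TRAP, against 15.8 ± 1.26 CPM in male total mRNA, and at 30.8 ± 3.36 CPM in female TRAP, against 31.1 ± 2.65 CPM in female total mRNA. Reads of such a partner were not counted to a member, because the counting used strand: of 1580 records nested in a record of the opposite strand, 62.6% had more counts than the longer record in at least 1 library, while of 18303 nested in a record of the same gene and strand 0 did.

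Dh44 runs on the plus strand of chromosome 3R (dm6) from 9638182 to 9650706, and its longest record, 9648983 to 9650706 (1724 bp), holds 2 shorter ones at 9648983 to 9649723 (741 bp) and 9649801 to 9650110 (310 bp). The 741 bp record was at 4.27 ± 1.504 CPM in male TRAP, against 0.392 ± 0.203 CPM in female TRAP, and at 7.91 ± 0.921 CPM in male total mRNA, against 0.282 ± 0.0411 CPM in female total mRNA. The whole 1724 bp record was at 8.09 ± 2.31 CPM in male TRAP, against 2.83 ± 0.267 CPM in female TRAP, and at 11.6 ± 1.54 CPM in male total mRNA, against 1.81 ± 0.230 CPM in female total mRNA. In female TRAP most of the level of the long record thus lay outside the 741 and 310 bp records, of which the 310 bp one was at 0.671 ± 0.306 CPM, and in male TRAP nearly all of it lay within them, with the 310 bp record at 3.15 ± 1.39 CPM. The 741 bp record was lower in male TRAP than in male total mRNA (-0.68, FDR = 0.0054), with the 310 bp record not called (-0.18, FDR = 0.60) and the 1724 bp record called lower (-0.30, FDR = 0.18).

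ITP had 2 records high enough for the test. Its last record (932 bp) was at 49.5 ± 9.03 CPM in male TRAP, against 28.3 ± 1.86 CPM in male total mRNA, and at 48.8 ± 6.11 CPM in female TRAP, against 50.3 ± 3.98 CPM in female total mRNA. The 1416 bp record before it was at 8.80 ± 1.80 CPM in male TRAP, against 7.96 ± 1.30 CPM in male total mRNA, and at 10.2 ± 1.78 CPM in female TRAP, against 12.7 ± 0.983 CPM in female total mRNA. In males the last record was higher in TRAP (0.85, FDR = 2.9e-08) and the other was not called (0.20, FDR = 0.29), and in females the last was not called (-0.04, FDR = 0.82) and the other was lower (-0.31, FDR = 0.081). Of the 6 records of CCHa2, the 5 tested, a pair of which overlap, were higher in TRAP by 1.68 to 2.09 in males and by 1.44 to 1.98 in females.

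**Figure D5:**
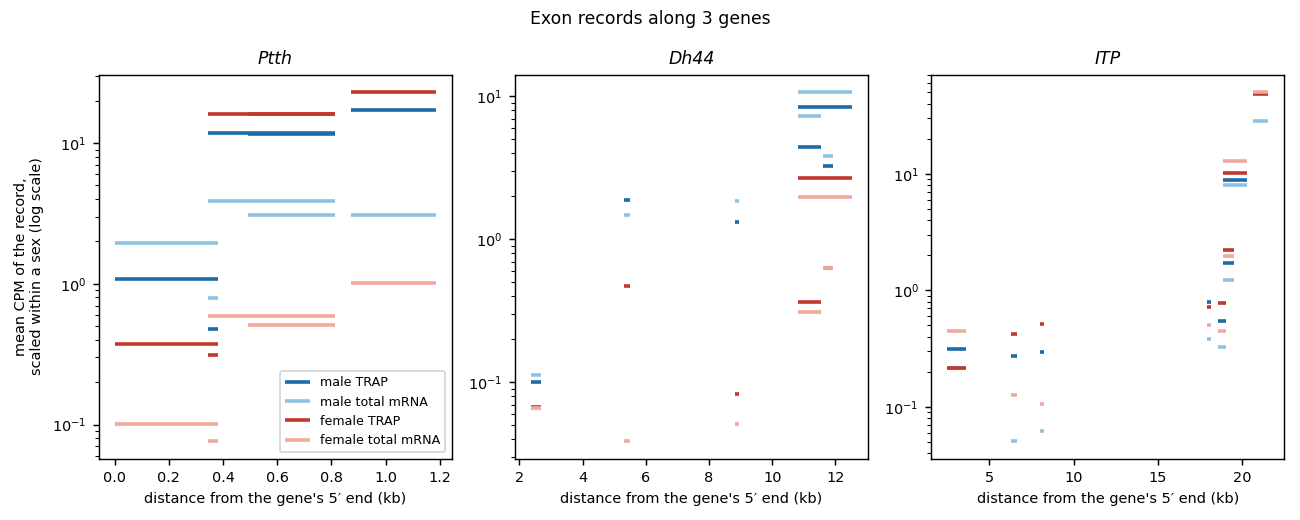
Mean CPM, on a log axis and scaled within a sex, of the exon records of Ptth, Dh44 and ITP against distance from the 5′ end of the gene in kb (bars span a record; records with hardly any counts are left out; the order of the legend is male TRAP, male total mRNA, female TRAP, female total mRNA). In Ptth the TRAP bars lay above total mRNA except in the first records of males, and in Dh44 the female bars of the shorter 3′ records lay far below the longest record, 0.367 against 2.695 CPM in female TRAP.

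A test of unequal change among the records of a gene (edgeR diffSpliceDGE) called 2 of 5 tested members between male TRAP and male total mRNA, ITP (FDR = 0.0033) and Ptth (FDR = 0.13), while 57.5% of all genes with more than 1 tested record were called. Without male TRAP replicate 5 or 6 or male total mRNA replicate 2 or 5 the count was 1. In females 0 of 5 were called, beside 41.8% of all genes, with 0 at an unadjusted p under 0.05 and ITP at FDR = 0.23, and the count was 1 without female total mRNA replicate 5 and 2 without female TRAP replicate 2. Between male and female TRAP 0 of 5 were called, beside 9.1% of all genes, again with 0 at an unadjusted p under 0.05. The tested records of AstA, AstC and Nplp1 were nested, as were some of Dh44, Ptth and CCHa2. Nested records share reads, so the test could show little for these genes and a missing call there says little. Only ITP and Capa had tested records that were all separate.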

How the data were processed

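Exon-level count tables of 9 TRAP and 9 total mRNA libraries were used. Single-end 100 bp reads of directional, poly(A)-selected libraries were mapped by the authors to dm6 with STAR 2.7.2a, and reads with a unique position were assigned to exon records by featureCounts, so the deposited values are raw counts without normalization; the annotation release is not given in the sources used here. A deposited table of the same libraries in RPM was not used. The 37 members, the marker lists and the receptor and processing lists were chosen with earlier results of these data known. Gene totals were summed over non-overlapping records, the longest first (69946 records), and tested with edgeR 4.0.16 in R 4.3.3 (quasi-likelihood F test, TMM, FDR by Benjamini-Hochberg over all genes), and records and exon usage as described with the results. Group labels came from the sample titles. TRAP and total mRNA of 1 number and sex were taken to share a lysate, which the titles do not state. Their deviations from the group means correlated at 0.158 to 0.764, so fits were made without and with a replicate block for the pairs. The values given come from the fit without the block, which leaves the pairing out, unless the block is named. Between the sexes the same check gave -0.276 to 0.102, so equal numbers were not treated as pairs. The rule for per-library values took, in each comparison, the called genes with the 5 largest and 5 smallest fold changes and, for the sex difference in enrichment, the 4 smallest p in each direction; from the gene lists it took at most the 3 smallest p. The values of amn, of Crz in male TRAP and total mRNA and of NPF in male and female TRAP were added after they were seen, as were cold, Hers and Akh. Alternatives were RLE, no or other low-count filters, DESeq2 1.42.0, the block, FDR under 0.05, sums without records overlapping another gene, and each library left out. Depth limits precision: intervals and floors cover counting error only, since reads carried no molecular identifiers. The p-values measure the spread between libraries of a group, each taken from its own lysate.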

Additional observations from a re-analysis of the deposited data

Results flagged for a closer look

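In 138 sets of libraries of 1 gene and group, 6 had 1 library far from the others, where chance alone gives about 1 in 20. These were Burs in male total mRNA replicate 3 (1.03 CPM), CCHa2 in female TRAP replicate 2 (207 CPM, the lowest), Eh in male TRAP replicate 3 (2.58 CPM), FMRFa in female total mRNA replicate 4 (2.86 CPM), Ms in female TRAP replicate 4 (1.60 CPM, the lowest) and SIFa in male TRAP replicate 1 (3.58 CPM). In 18 member genes the enrichment in TRAP differed between males and females in the interaction test at FDR under 0.2, with 14 of 35 (40.0%) more positive and 4 (11.4%) more negative in males, beside 49.1% and 10.8% of all genes. The log2 difference, male minus female, was -2.33 for Ptth, -0.88 for Proc, -0.84 for Dsk and -0.69 for Dh44. It was 1.86 for Crz, 1.68 for Dh31, 1.07 for Eh, 1.00 for ITP, 0.94 for Capa, 0.87 for CNMa, 0.85 for Mip, 0.74 for ETH, 0.72 for Nplp1, 0.70 for FMRFa, 0.68 for AstA, 0.62 for SIFa, 0.51 for Tk and 0.48 for Orcokinin. All are to be read against the all-gene median of 0.47, and with RLE 3 of the positive calls (Crz, Dh31 and ITP) and the 4 negative ones were kept. Crz entered this test through its counts in male TRAP, its highest group.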

How the results depend on the processing

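Of the counts of members called, 281 values under an alternative stayed within 1.5 times the value reported and 58 did not; for single named genes 767 kept their side of the threshold and 30 lost a call, and none changed direction. For exon records, no filter gave 20 higher and 13 lower in male TRAP against total mRNA (38.4% and 49.3% of all genes), 16 and 9 in female TRAP against total mRNA (35.8% and 34.4%), 7 and 10 in male against female TRAP (39.9%, and 3399 of 17017 genes) and 7 and 21 in male against female total mRNA (52.8% and 36.7%). A filter on every library of 1 group gave 2 higher and 5 lower in male against female TRAP (42.4% and 26.2% of all genes). The same filter gave 3 higher in male against female total mRNA (49.5%). RLE gave 3 lower in male against female TRAP (28.6%), and FDR under 0.05 gave 1 lower in female TRAP against total mRNA (39.2%). With the replicate block, records gave 2 lower in male TRAP against total mRNA (53.9% of all genes). Between the sexes, where numbers do not pair samples, the block gave 4 lower in TRAP (29.9%). For gene totals, FDR under 0.05 gave 3 lower in female TRAP against total mRNA (23.7% of all genes). It gave 2 higher and 13 lower in male against female TRAP (29.8% and 27.1%). For the sex difference in enrichment it gave 9 higher and 2 lower (36.6% and 6.35%). No filter gave 13 lower in male against female TRAP (19.2% of all genes), and the 2 CPM filter, which tests fewer genes, gave 4 there (22.5%), 10 lower in male against female total mRNA (43.2%) and 2 higher and 2 lower for the sex difference in enrichment (19.6% and 21.4%). That difference had 3 higher with RLE and 3 with DESeq2 (12.7% and 13.2% of all genes). Exon usage in males had 1 call at FDR under 0.05, beside 45.6% of all genes tested. Leaving out single libraries gave, for records, 1 to 3 lower in male TRAP against total mRNA (46.8% to 52.7% of all genes). In female TRAP against total mRNA it gave 1 to 2 lower (44.8% to 48.6%). Male against female TRAP had 1 to 2 higher and 1 to 3 lower (29.9% to 41.4% and 18.8% to 27.5%). Male against female total mRNA had 0 to 3 higher (45.9% to 49.9%). For gene totals, 11 to 22 were lower in male against female TRAP (23.3% to 39.9%). For usage there were 1 to 3 calls in males and 0 to 2 in females. Beyond the calls named with the results, the block changed no TRAP against total mRNA call of a gene total. For the sex difference in enrichment it gave 17 higher and 4 lower of 35, beside 52.9% and 12.4% of all genes. The members added were Hug, sNPF, Burs and Pburs, and Tk was lost. The causes were not tested.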
